A study of Mus musculus with 13 samples.

Results

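The SMN complex loads a ring of Sm proteins onto the small nuclear RNAs (snRNAs) that later remove introns. The genes described here encode its 9 components, Smn1, Gemin2, Ddx20 (Gemin3), Gemin4, Gemin5, Gemin6, Gemin7, Gemin8 and Strap (unrip), taken by gene symbol out of 31528 genes in the deposited table. They were chosen by a measured value, the fall of Gemin5 in starved blastocysts, so the comparison of starvation with E4.5 is given below as a description only. All 9 passed the filter on low counts that left 21808 genes for testing, and all 9 were tested in every comparison.

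In the cytoplasm Gemin5 recognises the snRNA, Gemin2 holds the incoming Sm proteins, and Smn1 together with Gemin8 forms the scaffold to which the other components attach. Methylation of Sm proteins by the methylosome precedes this step, and importins carry the finished particle (snRNP) into the nucleus. In mice, loss of Smn1 is lethal in the preimplantation embryo, and lowered SMN in humans causes spinal muscular atrophy. Gemin5 also binds ribosomes and messenger RNAs outside the complex.

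RNA came from whole mouse blastocysts of the B6D2F1 background, a mix of C57BL/6 and DBA2J, in 13 libraries. In diapause a blastocyst pauses before it implants and can later resume development. The reference group, E4.5 (n = 2), held wild-type blastocysts of embryonic day 4.5 under a normal diet, and the other 5 groups were of day 5.5. OVX (n = 2) was wild type after ovariectomy and starvation (n = 2) was wild type under a starvation treatment. Depleted KSOM (n = 2) was wild type and cultured in KSOM, an embryo medium, lacking protein and carbohydrate. Reduced KSOM (n = 3) was wild type and cultured in KSOM with lowered arginine, lysine, leucine and isoleucine and lowered lactate and glucose. Targeted OVX (n = 2) is labelled as a Nprl2 and Tsc2 knockout after ovariectomy, made with guide RNAs against both genes. Nprl2 and Tsc2 RNA was still counted in both of those libraries (549 and 1016 counts of Nprl2, 581 and 293 of Tsc2), which does not show whether the proteins were lost. The labels do not say whether the replicates came from separate mothers or cultures, so a p-value covers the spread among these libraries and no more. Age and treatment cannot be told apart in any comparison with E4.5, nor can culture and nutrient lack where either KSOM group is set against embryos that were not cultured.

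Total estimated counts ran from 40678386 to 72125687 per library. No defining marker of trophectoderm, epiblast or primitive endoderm was at 0 in any library. The summed level of 13 skeletal muscle genes was 1430 CPM (counts scaled to a common library size) in OVX 1 and 1060 to 1470 CPM in the 3 reduced KSOM libraries, where none of the genes was at 0. It was at most 494 CPM in the other libraries, with 3 to 10 of the genes at 0. The sum of 9 neutrophil genes was 602 CPM in OVX 1, 133 CPM in OVX 2 and from 1300 to 1800 CPM in the reduced KSOM libraries. In the remaining libraries it was 32.9 CPM or less, with 1 to 8 of the genes at 0. The sum of 5 red cell genes was 379 CPM in depleted KSOM 1, 353 CPM in reduced KSOM 3 and 83.7 CPM in OVX 1. In the other libraries it was 35.8 CPM or less, with 7.12 CPM in depleted KSOM 2. The sum of 5 uterine stroma and fibroblast genes was 36.8 CPM in starvation 2 and 25.6 to 32.3 CPM in reduced KSOM. Elsewhere it was at most 4.17 CPM. The part of these transcripts in results on OVX, starvation and both KSOM groups was not tested. In whole blastocysts, fewer cells of a type and less RNA per cell cannot be told apart.

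The RNA of 3 components lay to one side of both E4.5 libraries in all 5 day 5.5 groups: Gemin5 and Gemin4 below and Gemin2 above, a position that 9.43% of all genes tested shared. Since it includes the comparison that chose the genes, nothing is read from this count. Gemin4 counts are uncertain, for reasons given with its values, so the 250 bases before a RefSeq transcription start are shown for Gemin5 and Gemin2 (GRCm38.p6, with no annotated exon inside). The Gemin5 window is chr11:58168540-58168789 on the minus strand and the Gemin2 window is chr12:59013141-59013390 on the plus strand. Capitals mark the GC box.
Gemin5: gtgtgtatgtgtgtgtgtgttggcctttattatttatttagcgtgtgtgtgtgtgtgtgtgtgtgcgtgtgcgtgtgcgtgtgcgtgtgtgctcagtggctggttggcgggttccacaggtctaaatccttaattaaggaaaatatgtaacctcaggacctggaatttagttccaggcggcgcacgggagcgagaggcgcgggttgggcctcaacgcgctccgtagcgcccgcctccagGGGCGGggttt
Gemin2: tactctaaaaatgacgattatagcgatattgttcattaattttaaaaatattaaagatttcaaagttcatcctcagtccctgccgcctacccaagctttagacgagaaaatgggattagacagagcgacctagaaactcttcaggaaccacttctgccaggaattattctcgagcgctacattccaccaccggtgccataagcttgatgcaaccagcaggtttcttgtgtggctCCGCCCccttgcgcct
Both strands were searched for GGGCGG (the GC box), CCGGAAG (an ETS motif), CCAAT (the CCAAT box), TATAAA (the TATA box), CACGTG (an E-box) and the NRF1 motif. Each window held 1 GC box, at position -11 of Gemin5 and -16 of Gemin2 counted from the transcription start, and none of the other motifs, so no matches overlapped. RefSeq gives Gemin5 another start, at 58168513, whose window held 2 GC boxes and none of the other motifs. Of 32851 RefSeq promoter windows of this length, 32.7% held a GC box, 6.91% the ETS motif, 0.782% the NRF1 motif, 33.9% the CCAAT box, 12.4% the TATA box and 6.02% the E-box. The 2 windows thus shared a motif that is common among promoters.

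Levels of different genes were compared as FPKM, in which fragments are scaled by transcript length and library size. In E4.5 the order was Strap at 50.2 ± 11.9 FPKM (mean ± SD), Gemin6 at 47.1 ± 4.92, Gemin7 at 33.3 ± 7.61, Smn1 at 18.0 ± 5.15, Gemin2 at 17.8 ± 1.84, Gemin5 at 7.33 ± 0.474, Gemin4 at 6.24 ± 0.148, Ddx20 at 5.15 ± 0.955 and Gemin8 at 1.03 ± 0.53. Strap and Gemin6 did not differ beyond their spread, nor did Smn1 and Gemin2. Summed over the 9 genes the level was 192 and 180 FPKM in E4.5 and ran from 94.75 to 242.4 FPKM in the other libraries. Gemin5 was the sixth of the 9 in both E4.5 libraries and the ninth and the eighth in the starvation libraries.

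**Figure D1:**
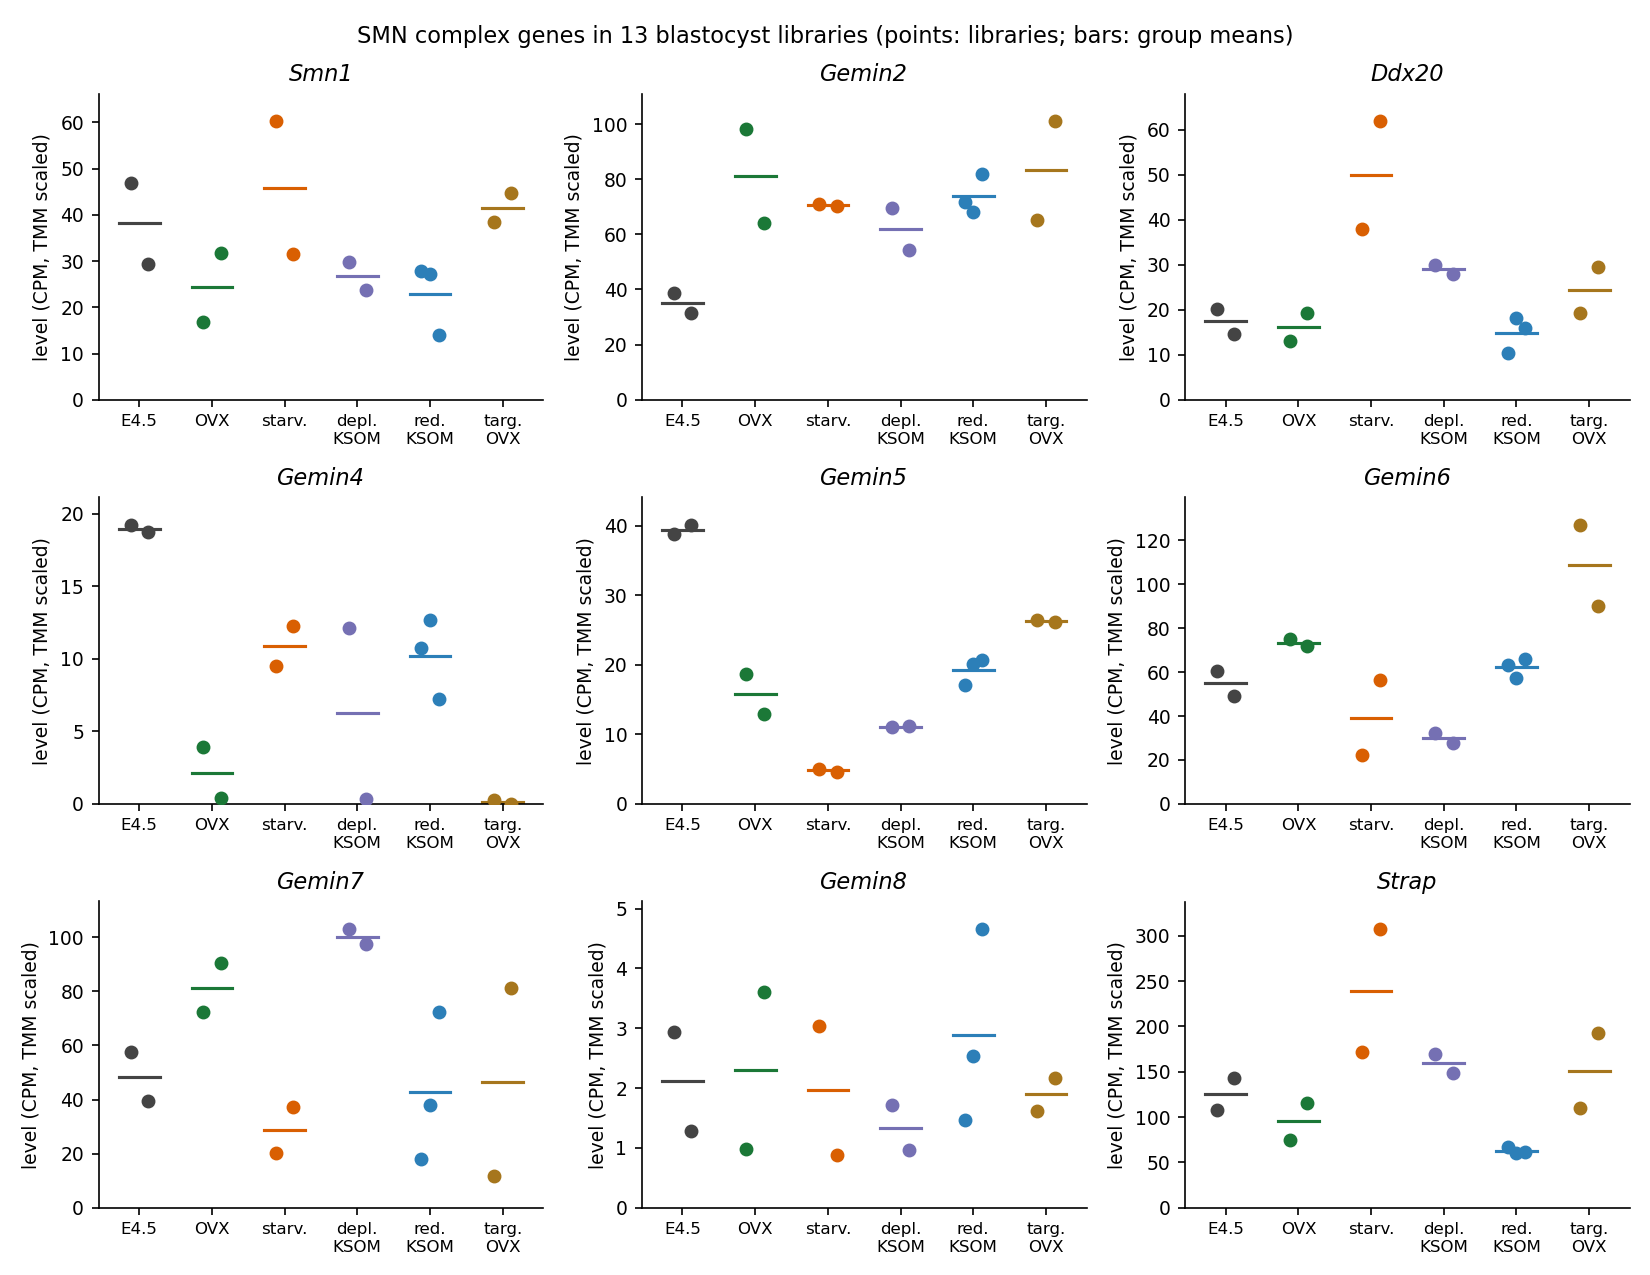
Level of each SMN complex gene (vertical axis, CPM after TMM scaling, from 0) in the 6 groups; points are libraries and bars are group means. Gemin5 lies at 38.8 and 40.1 CPM in E4.5 and at 4.64 and 5.05 CPM in starvation, and every Gemin2 point outside E4.5 lies above both E4.5 points.

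Gemin5, the component that recognises snRNAs, maps to chr11:58120002-58168539 (minus strand, GRCm38). Its level, in CPM scaled by the trimmed mean of M values (TMM), was 38.8 and 40.1 in E4.5 and 26.4 and 26.2 in targeted OVX. It was 17.0, 20.1 and 20.7 CPM in reduced KSOM and 18.72 and 12.99 CPM in OVX. It was 10.99 and 11.17 CPM in depleted KSOM and 5.05 and 4.64 CPM in starvation. All 11 day 5.5 libraries were below both E4.5 libraries. In the order of group means, E4.5, targeted OVX, reduced KSOM, OVX, depleted KSOM and starvation, the single pair of neighbours that overlapped was reduced KSOM and OVX. The FPKM of Gemin5 gave the same order of group means, from 6.99 and 7.66 in E4.5 through 2.76 and 3.13 in targeted OVX to 0.76 and 0.77 in starvation, with OVX (1.74 and 2.02) and depleted KSOM (1.71 and 1.67) side by side.

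The fall that chose these genes was 8.13-fold between starvation and E4.5, a log2 fold change of -3.02 ± 0.37 (SE). In that comparison 1 of the 9 genes was called at an adjusted p below 0.05 and lower, against 2.21% of all genes tested, and nothing is read from this count. Ddx20, at 1.52 ± 0.43, and Gemin2, at 1.01 ± 0.33, had the next largest differences in size, and Strap was at 0.93 ± 0.38.

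In depleted KSOM, which shares the E4.5 libraries with the comparison above, Gemin5 fell 3.56-fold (log2 fold change -1.83 ± 0.35, adjusted p = 0.011, edgeR). The E4.5 values of Gemin5 took part in choosing the genes, so this p-value is not independent of the choice. Gemin5 was the single member called of 9, against 5.51% of all genes tested, and nothing is read from this count. Leaving out any 1 of the 4 libraries ended the call, with log2 fold changes from -1.85 to -1.81: adjusted p rose to 0.094 when E4.5 replicate 1 was omitted, to 0.086 when E4.5 replicate 2 was, and to 0.12 for either depleted KSOM library. The median log2 fold change of the 9 members was -0.51, and that of all genes -0.09.

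In the other groups the difference of Gemin5 from E4.5 was smaller and did not pass. It was -1.32 ± 0.35 in OVX (adjusted p = 0.073), where 0 of 9 members were called against 2.04% of all genes. It was -1.03 ± 0.31 in reduced KSOM (adjusted p = 0.13), with 0 of 9 called against 1.13%. It was -0.58 ± 0.34 in targeted OVX (adjusted p = 0.39), with 0 of 9 called against 2.66%. At an unadjusted p below 0.05, 3 members stood in each of these 3 comparisons, against 15.8% of all genes in OVX, 15.2% in reduced KSOM and 17.6% in targeted OVX. DESeq2 called 2, 3 and 2 members in the same order, against 12.7%, 10.8% and 17.4% of the genes it tested. These 3 comparisons use the same 2 E4.5 libraries, whose Gemin5 values took part in the choice, so their shared direction is not independent evidence. Offsets for the median transcript length turned the targeted OVX value to 0.23 (SE 0.4), and offsets for the longest transcript, added later, to -0.003 (SE 0.372).

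Against OVX, Gemin5 was 1.71 ± 0.35 lower on the log2 scale in starvation, at 5.05 and 4.64 against 18.72 and 12.99 CPM. The starvation libraries are those whose Gemin5 values chose the genes, so this is a description with no test. In that comparison 0 of 9 members were called, against 0.225% of all genes. The difference was -0.52 ± 0.34 in depleted KSOM (adjusted p = 0.46; 0 of 9 members called, against 0.679% of all genes) and 0.28 ± 0.31 in reduced KSOM (adjusted p = 0.83; 0 of 9, against 0.202%). With offsets for the median transcript length the reduced KSOM value was -0.10. Targeting Nprl2 and Tsc2 gave 0.73 ± 0.34 relative to OVX (adjusted p = 0.46), with a 95% interval of -0.01 to 1.47, and 0 of 9 members were called against 0.0367% of all genes. For the 4 comparisons with OVX, the members at an unadjusted p below 0.05 numbered 4 for starvation (against 15% of all genes), 1 for depleted KSOM (15.9%), 1 for targeted OVX (10.9%) and 0 for reduced KSOM (9.48%). DESeq2 called 3, 1, 0 and 0 members in that order, against 11.3%, 12.9%, 7.13% and 4.57% of the genes it tested. The starvation counts include Gemin5, so nothing is read from them. Between reduced and depleted KSOM the value was 0.80 ± 0.32 (adjusted p = 0.16), all 3 reduced KSOM libraries being higher than both depleted ones. Such separation, in either direction, held for 48.3% of all genes tested.

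**Figure D2:**
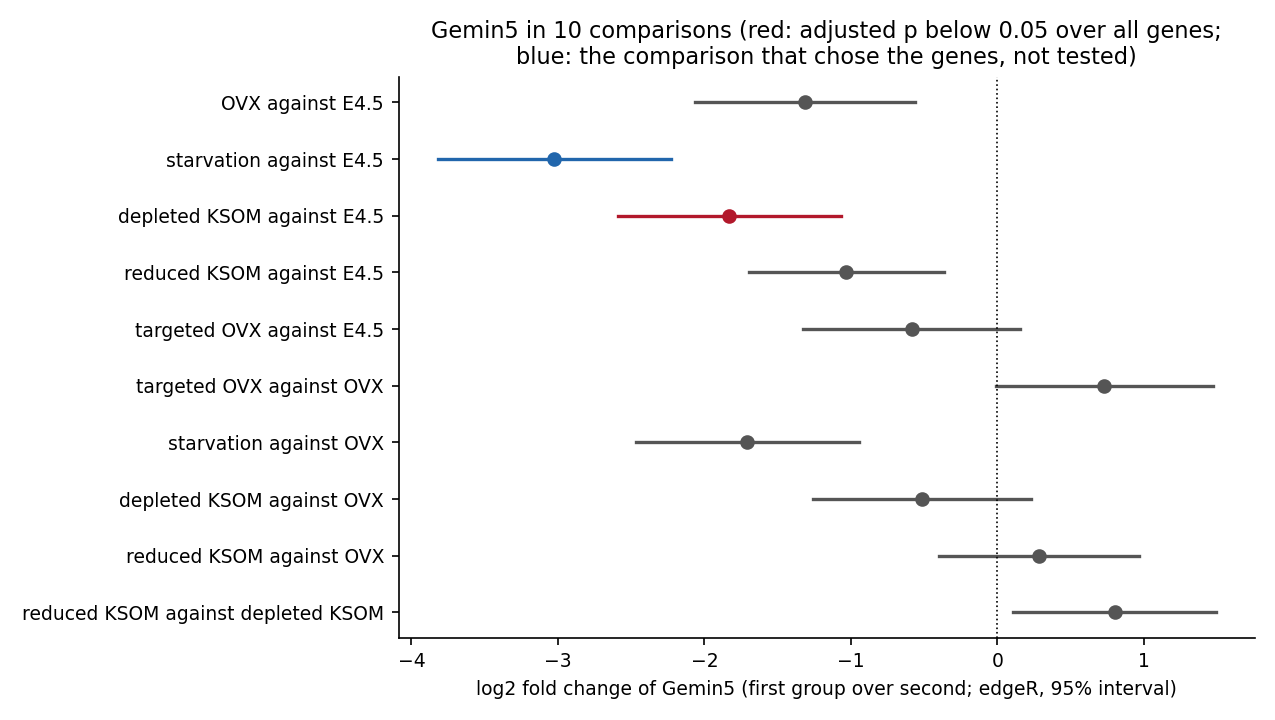
Log2 fold change of Gemin5 in 10 comparisons (horizontal axis, first group over second) with 95% intervals from edgeR. The call in red is depleted KSOM against E4.5 at -1.83, and starvation against E4.5 in blue is the comparison that chose the genes. Both use the E4.5 libraries, whose Gemin5 values took part in the choice.

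Summed CPM of 5 epiblast markers, scaled by library totals, was 285 and 237 in E4.5 and 22.5 to 134 in the day 5.5 libraries. It was 124 and 134 in starvation, where Gemin5 was lowest. It was 64.3 and 52.7 in targeted OVX, where Gemin5 was the highest of the day 5.5 groups. The sum of 6 trophectoderm markers was 6330 and 9590 in E4.5, 12900 and 6290 in starvation and 3210 and 4870 in targeted OVX. That of 4 primitive endoderm markers was 271 and 192 in E4.5, 136 and 209 in starvation and 50.4 and 54 in targeted OVX. The part of cell type proportions in the Gemin5 values was not tested.

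Gemin2, which holds the Sm proteins of the forming ring, was at 38.6 and 31.5 CPM in E4.5. The lowest day 5.5 library was depleted KSOM 2 at 54.5 CPM and the highest was targeted OVX 2 at 101 CPM, so no day 5.5 group overlapped E4.5. The starvation pair was close together, at 71.0 and 70.4 CPM. Relative to E4.5 the log2 fold change was largest in targeted OVX (1.25 ± 0.34) and OVX (1.21 ± 0.34), then reduced KSOM (1.08 ± 0.31), and smallest in depleted KSOM (0.82 ± 0.33), beside 1.01 ± 0.33 in starvation. None passed in edgeR, with adjusted p of 0.068, 0.085, 0.12, 0.18 and 0.14 in the same order. With libraries scaled by their totals these values were 0.52, 0.53, 0.39, 0.51 and 0.77, while the median of all genes moved to -0.92, -0.53, -0.50, -0.41 and -0.17. Relative to that median Gemin2 stood at 1.44, 1.06, 0.89, 0.91 and 0.94, and Gemin5 at -0.41, -1.46, -1.21, -1.75 and -3.10.

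Smn1, the scaffold protein of the complex, gave no call in any comparison. Its level was 47.0 and 29.4 CPM in E4.5, and the lowest library was reduced KSOM 3 at 13.9 CPM and the highest starvation 1 at 60.3 CPM. Both extremes lay beside a replicate of another level, since the other reduced KSOM libraries were at 27.9 and 27.1 CPM and starvation 2 was at 31.5 CPM.

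Strap, a WD-repeat protein bound to the complex, was at 67.0, 60.5 and 61.1 CPM in reduced KSOM and at 170 and 149 CPM in depleted KSOM. The groups did not overlap, which held for 48.3% of all genes tested. Strap was 2.53-fold lower in reduced KSOM (log2 fold change -1.34 ± 0.34, adjusted p = 0.038, edgeR). It was the single member called of 9 in this comparison, against 5.79% of all genes, with a member median of 0.25 and a median over all genes of 0.29. The call was lost without any 1 of the 5 libraries: adjusted p was 0.22 without depleted KSOM replicate 1, 0.12 without depleted KSOM replicate 2, 0.11 without reduced KSOM replicate 1, and 0.12 without reduced KSOM replicate 2 or 3. Against E4.5 (108 and 143 CPM) the reduced KSOM value was -0.999 ± 0.336, with an adjusted p of 0.18. Strap was highest in starvation, at 172 and 307 CPM, a log2 difference of 1.33 ± 0.38 from OVX (75.2 and 115 CPM) that did not pass (adjusted p = 0.14).

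Ddx20, a DEAD-box helicase that binds Smn1, was also highest in starvation. It was at 38.0 and 61.9 CPM there, 30.01 and 27.97 CPM in depleted KSOM and 20.2 and 14.6 CPM in E4.5. In OVX it was at 13.01 and 19.35 CPM, so that starvation lay 1.63 ± 0.43 higher on the log2 scale without overlap (adjusted p = 0.11). In that comparison 34.2% of all genes tested did not overlap. Between reduced KSOM (10.5, 18.3 and 15.9 CPM) and depleted KSOM the value was -0.96 ± 0.38 (adjusted p = 0.15). Over the 13 libraries Pearson r of log2 CPM between Ddx20 and Strap was 0.86, the highest of the 36 pairs, and that between Ddx20 and Gemin5 was -0.70, the lowest. These are descriptions over libraries that share groups and depth. The Gemin5 values of starvation and E4.5 took part in choosing the genes, so nothing is read from the pair with Gemin5.

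Gemin6 and Gemin7, which bind each other in the complex and have Sm-like folds, did not move in parallel. Gemin6 was at 32.3 and 27.7 CPM in depleted KSOM, with a log2 fold change of -1.29 ± 0.40 from OVX (adjusted p = 0.14). It lay below every library of OVX (74.9 and 71.7 CPM), in a comparison where 42% of all genes tested did not overlap. It was at 63.4, 57.1 and 65.9 CPM in reduced KSOM, 1.05 ± 0.37 above depleted KSOM (adjusted p = 0.12), and highest in targeted OVX at 127 and 90.4 CPM (0.99 ± 0.40 against 60.5 and 49.2 CPM in E4.5, adjusted p = 0.22). Gemin7 was instead highest in depleted KSOM, at 103 and 97.4 CPM. Gemin7 replicates differed widely in 2 groups, at 11.7 and 81.1 CPM in targeted OVX and 18.0, 38.1 and 72.3 CPM in reduced KSOM. In targeted OVX that was a 6.48-fold gap (CPM plus 1), which 1.12% of 9209 genes at 5 CPM or more reached. Over the libraries Gemin6 and Gemin7 had a Pearson r of -0.19. Gemin7 shares 263 exon bases (14.8% of its exons) with Zfp296 on the other strand, and reads of the pair cannot be told apart without strand. A pseudogene, Gemin6-ps, held 0 to 8 counts.

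Gemin8, which joins Gemin6 and Gemin7 to Smn1 and lies on the X chromosome, had the lowest level per length of the 9 in E4.5, and 30 to 292 counts over all libraries. Its level was 2.94 and 1.29 CPM in E4.5 and between 0.885 and 4.65 CPM elsewhere, and every group overlapped E4.5. The sex of the embryos is not in the labels.

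**Figure D3:**
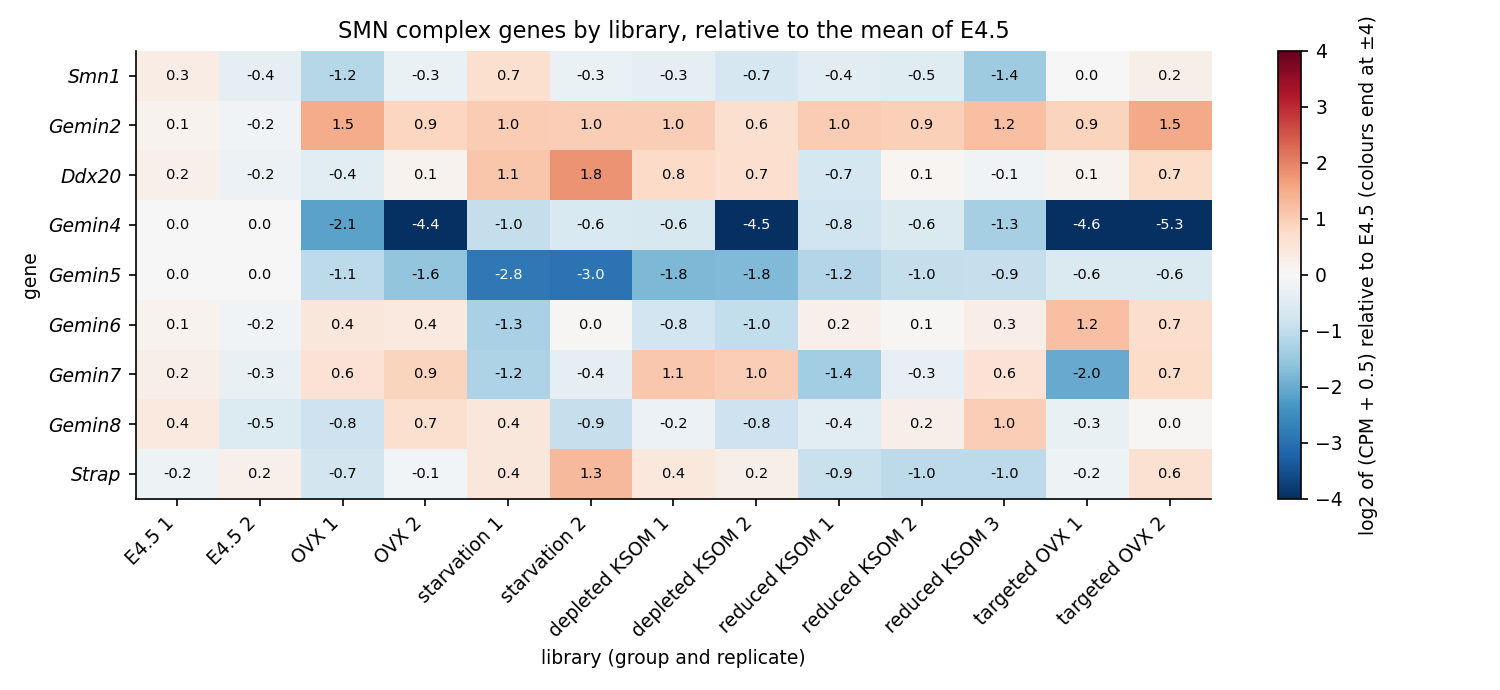
Log2 of CPM plus 0.5 in each library (columns) relative to the E4.5 mean, for the 9 genes (rows); red is higher and blue lower, and the colours end at a log2 difference of 4 either way. In all 11 day 5.5 libraries Gemin5 and Gemin4 are blue and Gemin2 is red.

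Gemin4, a partner of Ddx20, had the widest range and is uncertain. All 11 day 5.5 libraries were below both E4.5 libraries. Estimated counts were 1445 and 1293 in E4.5, 671 and 1070 in starvation, and 511, 513 and 336 in reduced KSOM. They were 119 and 33 in OVX, 983 and 25 in depleted KSOM, and 11 and 0 in targeted OVX. The depleted KSOM replicates thus stood apart, by 9.81-fold (CPM plus 1), a gap reached by 0.228% of 9209 genes. The fitted log2 fold change of targeted OVX against E4.5 was -7.04 ± 1.73 (adjusted p = 0.051) and ran from -13.19 to -2.82 over 15 other settings, of which 10 called it. That against OVX was -3.88 ± 1.55 (adjusted p = 0.39). With a library at 0 these fitted sizes depend on the handling of low counts.

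The exons of Gemin4 (chr11:76210571-76217664, minus strand) share 3353 bases, or 89.8%, with Glod4 on the same strand and 2875 bases, or 77.0%, with Fam57a on the other strand. How the submitters' counting divided reads among overlapping genes is not given in the sources used here. Fam57a was highest, at 1488 counts, in depleted KSOM 2, where Gemin4 was at 25, and Glod4 was at 3003 there and 3662 in depleted KSOM 1. Summed over the 3 genes, the locus was at 66.4 and 60.9 CPM in depleted KSOM and 56.2 and 64.4 CPM in E4.5. Its log2 fold change against E4.5 was 0.08 ± 0.33 in depleted KSOM, where Gemin4 alone gave -1.61 ± 1.32. It was -0.66 ± 0.34 in targeted OVX (adjusted p = 0.33) and -0.17 ± 0.33 in OVX (adjusted p = 0.88), where Gemin4 alone gave -3.16 ± 1.41. Whether reads of Gemin4 were assigned to its neighbours was not tested.

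**Figure D4:**
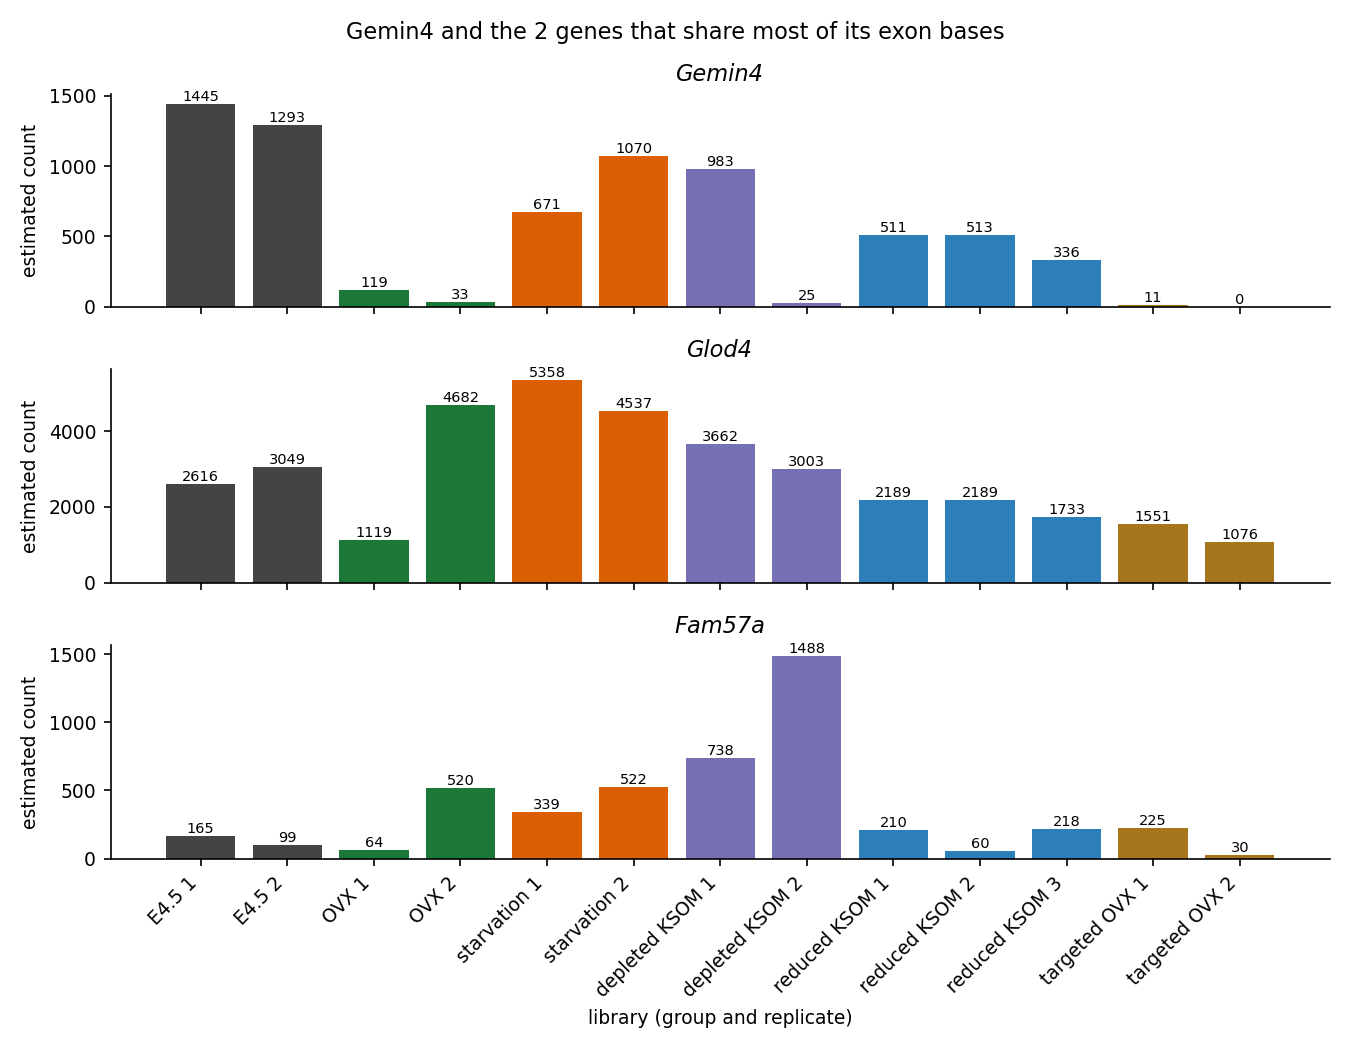
Estimated counts of Gemin4, Glod4 and Fam57a (vertical axes, from 0) in each library, coloured by group. Gemin4 is at 0 to 119 counts in the OVX and targeted OVX libraries and at 25 in depleted KSOM 2, where Fam57a peaks at 1488.

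Another 42 genes of snRNP assembly were read from 8 lists, and all were tested. The Sm ring proteins are the cargo of the SMN complex. Of their 8 genes, 3 fell and 0 rose in depleted KSOM against E4.5, with a median log2 fold change of -1.41, where 5.51% of all genes were called. Snrpd1 (SmD1) was at 73.2 and 75.4 CPM there, against 355 and 287 CPM in E4.5 (log2 fold change -2.11 ± 0.37, adjusted p = 0.0074). That call was lost without depleted KSOM replicate 1 (adjusted p = 0.058). Snrpf and Snrpg were also lower, at -1.65 ± 0.38 and -1.82 ± 0.43 (adjusted p = 0.027 and 0.028), and both calls were lost without E4.5 replicate 1 or either depleted KSOM library. Over 15 other settings, transcript length offsets among them, Snrpd1 ran from -2.43 to -1.46. Snrpf ran from -2.07 to -1.01 and Snrpg from -2.13 to -1.31. Of these settings 13 called Snrpd1, 11 called Snrpf and 10 called Snrpg.

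Relative to depleted KSOM, 5 of 8 Sm ring genes rose in reduced KSOM and 0 fell, with a median of 2.15 against 0.29 over all genes, of which 5.79% were called. Snrpb, Snrpf and Snrpn did not pass, at 0, 0.79 and -0.56 (adjusted p = 1, 0.2 and 0.33). These 2 comparisons share the depleted KSOM libraries. Snrpd1 was at 349, 269 and 371 CPM in reduced KSOM (2.15 ± 0.35, adjusted p = 0.0099), Snrpg at 857, 773 and 1056 CPM (2.33 ± 0.41, adjusted p = 0.013), and Snrpd3 at 382, 287 and 348 CPM against 52.6 and 64.0 CPM in depleted KSOM (2.54 ± 0.51, adjusted p = 0.02). Each of these calls was lost without either depleted KSOM library, that of Snrpg also without reduced KSOM replicate 3 and that of Snrpd3 without any 1 library. The calls of the other two were lost without any 1 library, so all 5 were lost without either depleted KSOM library. Of the LSm ring that binds U6 snRNA, 2 of 7 rose in the same comparison and 0 fell, and both calls were lost without any 1 of the 5 libraries. In the list for snRNA export, cap and import 1 of 7 fell, Ncbp1 of the nuclear cap-binding complex, at -1.33 ± 0.31 (adjusted p = 0.031). Its call was lost without any 1 of the 5 libraries. The muscle and neutrophil transcripts were high in all 3 reduced KSOM libraries, and their part in these differences was not tested. Over 16 other settings, transcript length offsets among them, Snrpd1 ran from 1.27 to 2.28 and Snrpg from 1.55 to 2.54. Snrpd3 ran from 2.1 to 2.68, Snrpd2 from 1.55 to 2.57 and Snrpe from 1.22 to 2.35. Calls came in 14 of these settings for Snrpd1, 13 for Snrpg, 11 for Snrpd3, 8 for Snrpd2 and 9 for Snrpe. They came in 6 for Lsm6 and 8 for Lsm7 of the LSm ring, and in 10 for Ncbp1. Longest transcript length and a gene's level relative to its mean over libraries had rank correlations of 0.21 and 0.13 in depleted KSOM. In reduced KSOM these were -0.05, 0.01 and -0.03. Beyond the length offsets among those settings, the part of length in the Sm ring values was not tested.

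Kpnb1 (importin beta), which carries assembled snRNPs and other cargo into the nucleus, was the export and import gene called most often. It was at 200 and 229 CPM in E4.5, at 44.0 to 61.2 CPM in the OVX, starvation and depleted KSOM libraries, at 53.7 to 80.7 CPM in reduced KSOM and at 115 and 87.9 CPM in targeted OVX. It fell against E4.5 in depleted KSOM (-2.27 ± 0.31, adjusted p = 0.0026), OVX (-1.92 ± 0.31, 0.01), starvation (-1.97 ± 0.31, 0.0099) and reduced KSOM (-1.71 ± 0.27, 0.016), comparisons that share the 2 E4.5 libraries. The depleted KSOM call held without each of its 4 libraries. The OVX call was lost without E4.5 replicate 2 or OVX replicate 1, the starvation call without either E4.5 library, and the reduced KSOM call without either E4.5 library or reduced KSOM replicate 1 or 2.

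Lsm10, a subunit of the ring on U7 snRNA, rose against E4.5 (22.6 and 24.7 CPM) in OVX, at 203 and 91.1 CPM (2.64 ± 0.41, adjusted p = 0.0093), and in depleted KSOM, at 101 and 103 CPM (2.11 ± 0.41, adjusted p = 0.011). Both calls were lost without either E4.5 library. In starvation Lsm10 was at 19.0 and 35.4 CPM, lower than in OVX (-2.43 ± 0.41, adjusted p = 0.039). Of 15 other settings 8 called this difference. Among the losses were the fits without OVX replicate 1 or starvation replicate 1 and the replicate block (adjusted p = 0.083). In targeted OVX, Lsm8 of the U6 ring (1.97 ± 0.41, adjusted p = 0.028) and Snrpa1 of the U2 snRNP (1.62 ± 0.39, adjusted p = 0.049) rose against E4.5. Of 15 other settings 7 called Lsm8 and 6 called Snrpa1. The Lsm8 call was lost without either E4.5 library or targeted OVX replicate 2, and the Snrpa1 call without any 1 of the 4 libraries.

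Against E4.5, 1 of the 42 genes rose and 4 fell in depleted KSOM (5.51% of all genes called), 1 rose and 1 fell in OVX (2.04%), 0 rose and 1 fell in starvation (2.21%) and in reduced KSOM (1.13%), and 2 rose and 0 fell in targeted OVX (2.66%). In reduced against depleted KSOM 7 rose and 1 fell (5.79%). Against OVX 1 fell in starvation (0.225%), and edgeR called 0 in targeted OVX (0.0367%), depleted KSOM (0.679%) and reduced KSOM (0.202%). No gene of the methylosome, Cajal body or snRNA gene transcription lists was called in any of the 10 comparisons.

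**Figure D5:**
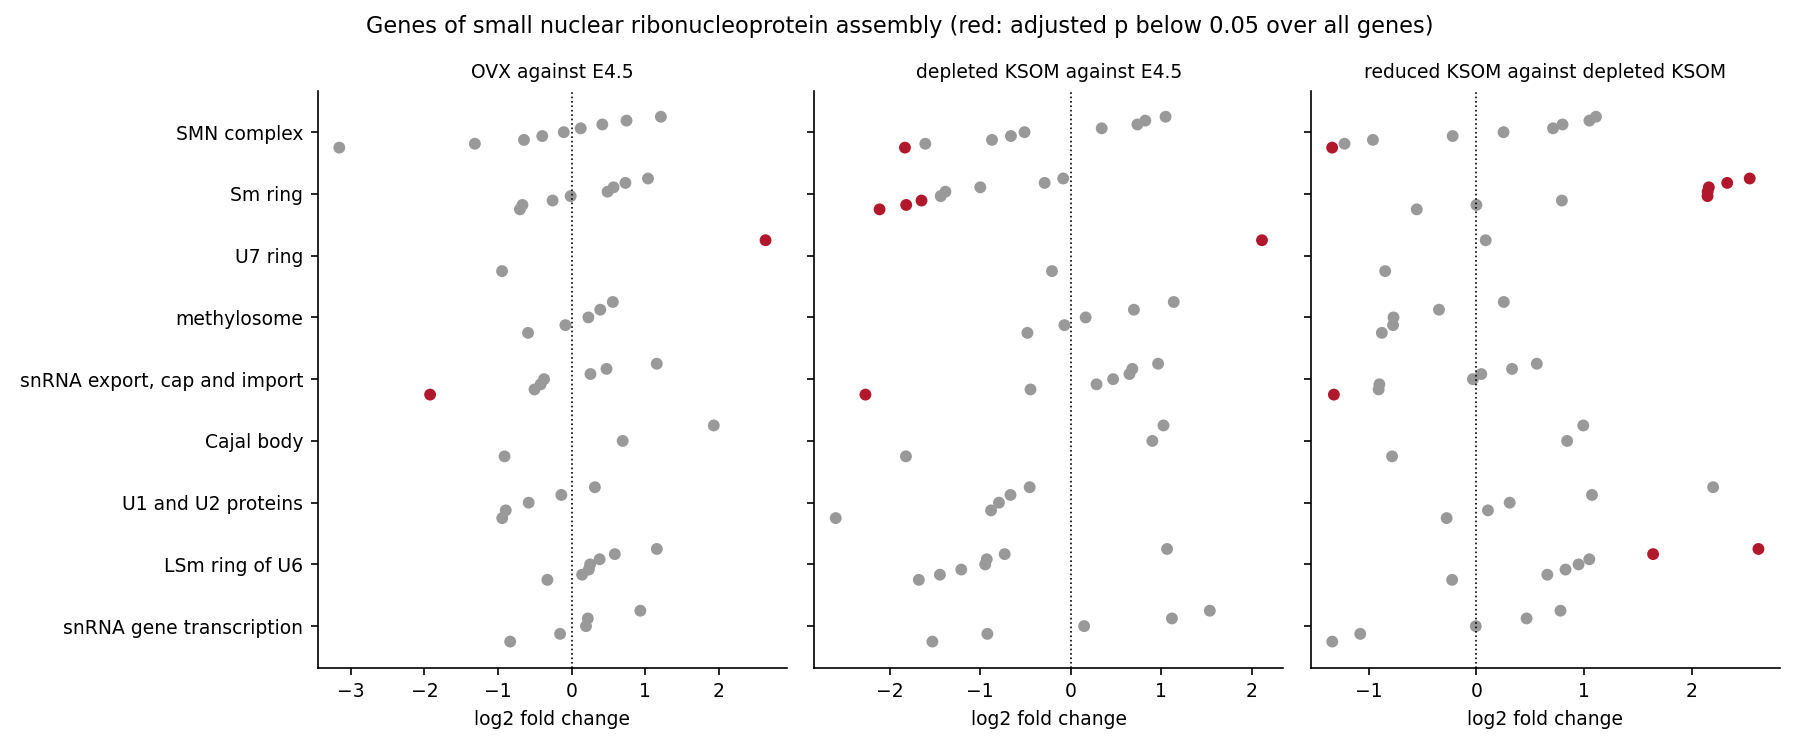
Log2 fold changes (horizontal axes) of the 9 SMN complex genes and 42 other genes of snRNP assembly, by list, in 3 comparisons; red points have an adjusted p below 0.05 over all genes. The Sm ring lies left of 0 in depleted KSOM against E4.5, median -1.41, and mostly right of 0 in reduced against depleted KSOM, median 2.15.

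Likeness was read over 4928 genes whose mean log2 CPM reached 4. The 8 whose log2 CPM followed Gemin5 most closely over the 13 libraries were Rps2 (Pearson r = 0.951), Trim43a (0.903), Szrd1 (0.888), Mlec (0.877), Ezh2 (0.875), Tubb5 (0.874), Hadha (0.855) and Polr3g (0.852). Rps2, a protein of the small ribosomal subunit, averaged 1031 CPM in E4.5, 990 CPM in targeted OVX and 465 CPM in starvation. Ezh2, a histone methyltransferase of the Polycomb group, averaged 40.9 CPM in E4.5 and 19.7 CPM in starvation. Rps2 has many processed copies and Trim43a close paralogs, so the counts of both are uncertain. All 8 had their lowest group mean in starvation, as Gemin5 did. A choice by likeness to Gemin5 favours that position, so nothing is read from it. The libraries share groups and depth, so these values only describe likeness.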

How the data were processed

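RNA from whole blastocysts was prepared with a SMART-Seq kit for ultra-low input, which amplifies full-length cDNA; the kit is named per the labels' protocols, which mention no molecular identifiers. The deposited table gives an estimated count per gene, in whole numbers, and FPKM computed by the authors. The submitters' processing notes name cutadapt 1.9, HISAT2 2.0.4, StringTie 1.3.4d and GRCm38; the annotation and the counting step are not given in the sources used here. Between 27.2% and 34.6% of low counts are multiples of 4, so counts divided by 4 were an alternative.

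Libraries were grouped by the labels. The 13 libraries were fitted together with edgeR 4.0.16 (filterByExpr, TMM factors from 0.671 to 1.41, quasi-likelihood tests, 7 residual degrees of freedom, common biological coefficient of variation 0.896), and a call meant an adjusted p below 0.05 (Benjamini-Hochberg, over 21808 genes). Alternatives, in R 4.3.3, were DESeq2 1.42.0, limma 3.58.1 on log2 FPKM, other scalings, no low-count filter, a replicate block, transcript length offsets, fits of only the groups compared and each library left out. Figures were drawn in Python 3.11.15 with matplotlib 3.10.9. The test code was run on counts simulated from its own fitted dispersions. Such counts hold no batch or foreign tissue, so that run does not bear on how firm the calls are. Exons and transcript lengths came from GENCODE vM21 and promoters from RefSeq, both on GRCm38.

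The members and lists were chosen with earlier results of these data known. Named were the 9 members, up to 3 called genes a direction from the assembly lists by adjusted p, and the 8 genes most like Gemin5.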

Additional observations from a re-analysis of the deposited data

How the results depend on the processing

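Counts of members called, out of 9, changed with the setting. Against E4.5, OVX went from 0 to 1 with library totals, no filter or log2(FPKM + 0.1), and to 2 with DESeq2 or log2(FPKM + 1). The shares of all genes called were 1.32%, 4.66%, 3.28%, 12.7% and 5.01% in the same order. Starvation went from 1 to 3 with DESeq2, to 0 in a fit of only the groups compared, in which 0 of all genes were called, and to 1 to 2 when leaving out a library (2 without starvation replicate 1, Ddx20 joining). Depleted KSOM went from 1 to 0 without each library. Reduced KSOM went from 0 to 1 with library totals and both FPKM fits, and to 3 with DESeq2 or only the groups compared. There the shares of all genes called were 2.5% with library totals and 6.33% and 4.71% with the FPKM fits. They were 10.8% with DESeq2 and 12.7% with only the groups compared. Targeted OVX went from 0 to 1 with library totals, no filter, the replicate block, counts divided by 4 or without targeted OVX replicate 1 (0 to 1 over libraries left out), Gemin4 each time, and to 2 with DESeq2, both FPKM fits and both length offsets (Gemin4 with Gemin2 or Gemin5). Against OVX, targeted OVX went from 0 to 1 with no filter, starvation to 3 with DESeq2, 2 with no filter and 1 without OVX replicate 2 (0 to 1), and depleted KSOM to 1 with DESeq2. Reduced against depleted KSOM went from 1 to 3 with DESeq2 or only the groups compared, to 2 with no filter, and to 0 with the replicate block, either FPKM fit or without each library. The cause was not tested. DESeq2 called 12.7% of all genes in OVX and 14.7% in starvation against E4.5.

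Among the fold changes followed here, median transcript length offsets reversed Gemin5 in targeted OVX against E4.5 (0.225) and in reduced KSOM against OVX (-0.099). The Gemin4 locus in depleted KSOM against E4.5 was also reversed (0.079). Offsets for the longest transcript were added after the Gemin5 reversals were seen. They gave Gemin5 values near 0 (-0.003 and 0.023), where the main fit gave -0.58 and 0.28. Other member differences changed sign too. Gemin8 in reduced KSOM against E4.5 did so in 6 of 16 settings, and Gemin2 in targeted OVX against OVX in 5 of 15. Gemin4 in depleted KSOM against OVX went from 1.55 to -2.65 without depleted KSOM replicate 1. Length implied by count over FPKM had a rank correlation across genes of 0.95 to 0.96 with the longest and 0.5 to 0.55 with the median transcript. The Gemin4 locus sum and the settings on called assembly genes were also added after the data were seen. The replicate numbers mark no shared source in the labels, and same-numbered libraries did not deviate together (30 pairs, correlations from -0.059 to 0.073). In groups of 2 libraries the deviations from the group mean mirror each other, so part of these pairs repeat the same value. Under the replicate block no other count of members changed, and of the 20 calls of assembly genes 6 were lost, with adjusted p from 0.051 to 0.083: Snrpd2, Ncbp1, Lsm6 and Lsm7 in reduced against depleted KSOM, Lsm10 in starvation against OVX and Lsm8 in targeted OVX. With 2 or 3 libraries a group, leaving 1 out can leave a lone library, assumed to vary like the others.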
